A study of Mus musculus with 8 samples.

Results

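Cytosolic ribosomal protein genes encode the protein part of the ribosomes that translate nuclear mRNAs. They were taken from the deposited gene table by symbol, as *Rpl* or *Rps* followed by a number and at most 1 of the letters a, x and l, together with *Rplp0*, *Rplp1*, *Rplp2* and *Rpsa*. Pseudogenes and the *Rps6k* kinases were left out. The rule used no measured value and gave 81 of the 27036 genes of the table, of which 32 belong to the small and 49 to the large subunit. The 78 members that passed the filter on low counts are described with tests, and the other 3, *Rpl3l*, *Rpl10l* and *Rpl39l*, with their counts.

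The study asked how a human androgen receptor transgene (*hARtg*) that is switched on in *Osr1*-lineage cells leads from normal prostate to prostatic intraepithelial neoplasia (PIN) and prostatic adenocarcinoma (PCa) in the mouse. Bulk RNA sequencing covered 3 PIN and 2 PCa samples of *R26mTmG/hAR:Osr1Cre/+* mice and 3 normal prostates labelled WT-control, which per the study came from *R26mTmG/+:Osr1Cre/+* mice, so that the controls also carried Osr1-Cre and the membrane reporter. Lesion tissue was checked under the microscope and was mostly atypical or tumor cells, and animals were of mixed C57BL/6 and 129S1/SvImJ background. The study describes the controls as matched for age and sex, and the labels give no age. In the study PIN lesions appeared at younger ages than PCa, so age and lesion stage cannot be told apart in PCa vs PIN. Total counts ran from 21751803 to 29730420 per sample. The tissue was not uniform across groups: the 7 smooth muscle markers summed to 2021 to 4867 CPM (counts per 1000000 of the scaled library) in WT, 3202 to 5865 in PIN and 19.7 to 42.7 in PCa, with 7 of 7 called lower in PCa vs WT, against 4.18% of all tested genes. The 9 luminal markers summed to 11388 to 33523 CPM in WT, 12182 to 19362 in PIN and 3699 and 3940 in PCa, and the 15 leukocyte markers to 65.2 to 139 in WT, 70.2 to 163 in PIN, 495 in PCa 1 and 42.0 in PCa 2. No marker of these lists was at 0 in all samples, and the part of tissue makeup in the results was not tested. In such bulk samples, fewer cells of a type and less RNA per cell cannot be told apart. The library numbers in the labels run from 18716 to 28467 in WT and from 31885 to 31892 in PIN and PCa, so what these numbers stand for, which the labels do not say, and the condition cannot be told apart in comparisons with WT.

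Each cytosolic ribosome holds 1 copy of nearly every ribosomal protein, and cells therefore make these proteins in matched amounts. Their mRNAs are among the most abundant of most cells and carry a run of pyrimidines at the 5′ end (the 5′ terminal oligopyrimidine, or TOP, motif), through which mTOR signalling and the RNA-binding protein Larp1 control their translation. Because that control acts on translation, mRNA levels as measured here need not follow ribosome production. Growth of tumor cells is commonly linked to ribosome production through Myc, mTOR and RNA polymerase I.

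The start of transcription is shown first, since the pyrimidine run is what these genes are known for. RefSeq promoters (GRCm38.p6) matched 60 of the 81 genes by symbol. In the windows of 30 bases below, base 16 is the annotated start, and capitals mark the run, read as a C at most 5 bases from the start followed by at least 4 pyrimidines. The first 5 genes hold the run and range from one of the 3 highest levels per length (*Rps27*) to one of the 8 members below 100 TPM (*Rpl7a*), a unit explained with the levels, while the last 3 are genes of higher level without it at the annotated start.
Rps27: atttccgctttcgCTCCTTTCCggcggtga
Rps26: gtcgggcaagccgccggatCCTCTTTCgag
Rps6: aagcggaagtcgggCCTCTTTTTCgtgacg
Rplp2: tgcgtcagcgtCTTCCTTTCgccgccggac
Rpl7a: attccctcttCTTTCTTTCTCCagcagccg
Rpl4: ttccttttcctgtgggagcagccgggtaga
Rps12: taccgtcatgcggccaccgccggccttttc
Rplp0: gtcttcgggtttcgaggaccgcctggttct
By exact match of the sequence, these windows lie in mm9 at chr3:90017556-90017585 (minus strand), chr10:128063548-128063577 (minus), chr4:86503257-86503286 (minus), chr7:148633535-148633564 (plus), chr2:26766312-26766341 (plus), chr9:64021179-64021208 (plus), chr10:23507001-23507030 (minus) and chr5:116009461-116009490 (plus). The run was found in 28 of the 60 matched genes (46.7%), against 21.2% of all 27025 genes of the promoter table and 25.4% of 67 mitochondrial ribosomal protein genes. An annotated start that is off by a few bases hides the run, so a window without capitals says only that no such run begins within 5 bases of that start. Pyrimidine runs farther off, as in the windows of *Rpl4* and *Rps12*, were not counted.

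The letters CCGGAAG, a core bound by ETS factors, stood on either strand of the 300-base promoter in 25 of the 60 genes (41.7%), against 9.93% of all genes of the promoter table, 35.8% of the mitochondrial ribosomal protein genes and 41.0% of 39 ribosome assembly factors. Both features occurred in 16 genes. The E-box CACGTG stood in 6 of 60 genes, against 8.09% of all genes of the table, and TATAAA also in 6 of 60, against 15.7%. In the following windows capitals mark CCGGAAG next to the start of *Rpl26*, which lies at chr11:68715053-68715082 (mm9, plus strand), and of *Rpl11*, at chr4:135609294-135609323 (minus strand).
Rpl26: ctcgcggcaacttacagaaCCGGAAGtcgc
Rpl11: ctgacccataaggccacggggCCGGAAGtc
In PCa vs WT, where the groups are compared by edgeR as described with the comparisons, the median log2 fold change was −0.28 over 28 tested members with the pyrimidine run and −0.23 over 29 without it, and −0.23 over 24 with CCGGAAG against −0.25 over 33 without it. No test was made of these differences.

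The level per length, as transcripts per 1000000 (TPM) from the counts and the summed exon length of the table, spanned more than 2 orders of magnitude among genes whose products are used in matched amounts. The median of the WT medians was 394 TPM, 12 members lay above 1000 TPM and 8 below 100 TPM. *Rpl4*, whose product lines the exit tunnel, led with 2735, 4608 and 3807 TPM in WT, 2996, 4078 and 3393 in PIN and 2732 and 3529 in PCa. *Rps27* followed at 1724, 3023 and 2244 TPM in WT and *Rps26*, which lies where the mRNA leaves the small subunit, at 1664, 2865 and 2242 TPM. *Rpl4* exceeded both in each WT sample, and *Rps27* exceeded *Rps26* in each by less than the spread between the samples. In PCa 1, *Rps26* at 3740 TPM exceeded *Rpl4*. At the other end stood *Rpl21* with 5.73, 9.48 and 9.08 TPM, *Rpl29* with 26.6, 21.2 and 1.87 TPM and *Rps19*, the gene most often mutated in Diamond-Blackfan anaemia, with 72.2, 50.7 and 50.6 TPM in WT.

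**Figure D1:**
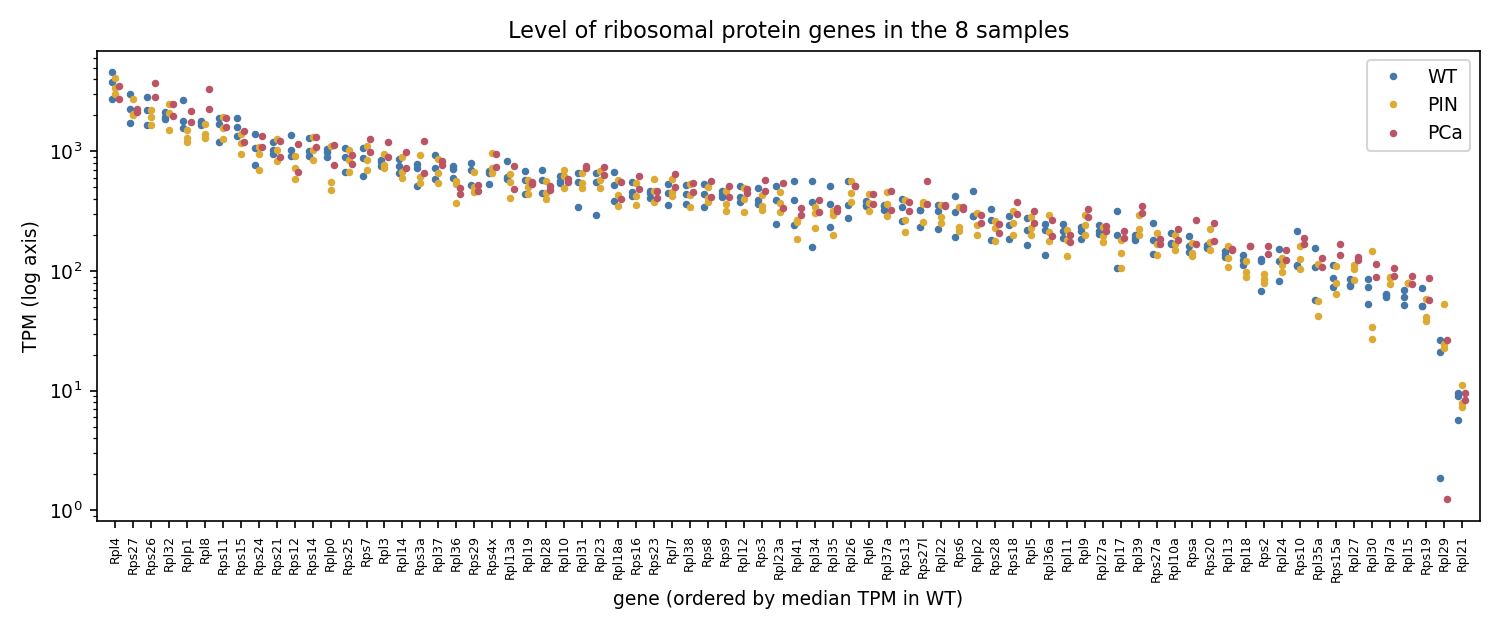
TPM (log axis) of 76 of the 78 tested ribosomal protein genes, ordered by their median in WT, with 1 point for each of 3 WT, 3 PIN and 2 PCa samples. *Rpl4* leads in WT, *Rpl21* is at the bottom of the WT order, and *Rpl29* is the gene whose samples lie farthest apart, with 1.87 TPM in WT 3 and 1.23 TPM in PCa 1.

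The order was similar between samples. Spearman's rho between any 2 samples over the 78 members ran from 0.94 to 0.99, as a description, since every sample shares the same gene lengths and the same reference. The order also depended on the length used. Of the 10 members highest in TPM, 7 were also among the 10 highest per length of a single coding transcript, whose median length was 761 bases against a summed exon length of 1464 bases, and 4 were among the 10 highest in CPM. *Rps19*, at the low end, had a summed exon length of 4685 bases against 774 bases for its coding transcript. Its low TPM thus depends on the length used.

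Copies in the genome were counted beside these levels. Ribosomal protein genes are known for many processed pseudogenes, which hold the mRNA sequence without introns. Of all 50-base stretches of each coding sequence, a median of 90.3% was also found elsewhere in mm9 over 77 tested members with a coding transcript, 28 members had every stretch elsewhere, and 66 had more than 50% of them. For 75 mitochondrial ribosomal protein genes the median was 0% and 5 exceeded 50%. The first 30 coding bases of the 2 lowest members and of *Rpl8*, with the start codon in capitals, show the range.
Rpl21: ATGacgaacacaaagggaaagaggagaggc
Rpl29: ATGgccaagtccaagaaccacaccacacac
Rpl8: ATGggccgtgtgatccgagggcagaggaaa
Besides the gene itself, these bases occurred exactly at 42 places in mm9 for *Rpl21* (chr5:147644466-147648608), at 31 for *Rpl29* (chr9:106331785-106333899) and at 0 for *Rpl8* (chr15:76734501-76736748). Reads from such stretches can align to several places, and how the counting treated them is not given in the sources used here, so the levels of these genes are uncertain. Across the 77 members, the share of stretches found elsewhere and the TPM in WT had a Spearman's rho of −0.35, and the share and the spread within groups one of −0.02, both as descriptions over genes that share libraries. *Rpl4*, with 20.2% of its stretches elsewhere, had a WT median of 3807 TPM, and *Rpl8*, with 8.83%, one of 1772 TPM. Members also lay the other way: *Rps27*, with all of its stretches elsewhere, had 2244 TPM, and *Rpl22*, with 30.8%, had 320 TPM.

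*Rpl29*, which encodes a small protein of the large subunit, had the widest spread of all members. Its CPM was 6.66, 6.74 and 0.438 in WT, 5.28, 12.03 and 5.98 in PIN and 0.257 and 5.30 in PCa. WT 3 and PCa 1 were near 0 while the other samples of their groups were not, so the groups overlapped in every comparison. Its log2 fold changes of 0.75 (PIN vs WT), −0.73 (PCa vs WT) and −1.48 (PCa vs PIN) had standard errors of 1.15, 1.31 and 1.34.

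Samples of 1 group differed from each other in the level of most ribosomal protein genes. On the log2(CPM + 0.5) scale with library sizes scaled by the trimmed mean of M-values (TMM), the median member lay at −0.29, 0.52 and −0.16 from the WT mean in WT 1, WT 2 and WT 3, at −0.55, 0.00 and −0.24 in the PIN samples and at −0.33 and −0.07 in the PCa samples. WT 2 was the highest of all 8 samples for 63 of the 78 members, against 22.1% of all tested genes, and the highest WT sample for 74. WT 2 also stood apart in tissue markers: the luminal list summed to 33523 CPM in it against 11388 and 18739 in WT 1 and WT 3, the basal list to 1691 against 710 and 951, and the smooth muscle list to 2021 against 4147 and 4867. The part of these differences in the ribosomal protein values was not tested. PCa 2 was higher than PCa 1 in 60 members, with a median difference of 0.21. The span from −0.29 to 0.52 within WT was wider than the median fold change of any comparison.

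**Figure D2:**
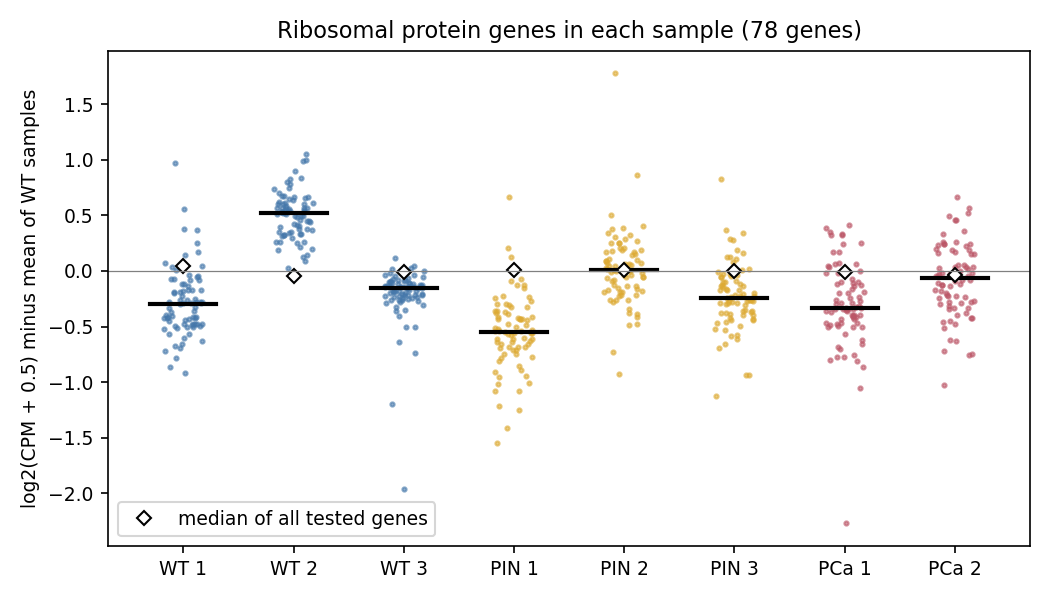
Log2(CPM + 0.5) of each of the 78 tested ribosomal protein genes minus the mean of the 3 WT samples, with a bar at the median of the genes and a diamond at the median of all 14034 tested genes. WT 2 lies above the other samples (median 0.52) and PIN 1 below them (median −0.55), while the diamonds stay near 0.

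Of the samples, WT 1, PIN 1 and PIN 3 were lower than the other 5 samples for 9 members: *Rpl17*, *Rpl22*, *Rpl30*, *Rpl35a*, *Rps13*, *Rps15a*, *Rps26*, *Rps3* and *Rps6*. These are 11.5% of the members, against 1.70% of tested genes, and the pattern was picked after the values were seen. Among them, *Rpl30*, a small protein of the large subunit, had 50.1, 89.3 and 75.8 CPM in WT, 23.5, 127 and 31.7 in PIN and 69.9 and 87.8 in PCa. Within the same 3 samples the pseudogene *Rps13-ps1*, no member, was listed at 13.1, 17.9 and 23.0 CPM, against 0.0731 to 0.317 CPM in the other 5. *Rps13* itself had 114, 221 and 140 CPM in WT, 84.2, 155 and 114 in PIN and 116 and 130 in PCa. What sets these 3 samples apart was not tested.

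The share of each library that fell on the ribosomal protein genes was 1.42%, 1.99% and 1.497% of all counts in WT, 1.27%, 1.88% and 1.46% in PIN and 1.95% and 2.07% in PCa. Both PCa samples lay within or just above the range of the other groups. The 28 genes of the secretory list, which encode prostatic secretion proteins, took 24.2% to 30.6% of the counts in WT, 18.6% to 24.5% in PIN, but 2.09% and 0.546% in PCa. Of the counts outside that list, the ribosomal protein genes held 2.04%, 2.62% and 2.07% in WT, 1.57%, 2.38% and 1.93% in PIN and 2.00% and 2.09% in PCa, so PCa 1 then lay just below all WT samples and PCa 2 between WT 3 and WT 2. The log2 ratio of mean shares in PCa vs WT was 0.30 over all counts, −0.14 outside the secretory list and −0.26 for summed TMM-scaled CPM. The direction for these genes as a whole thus differed between scales.

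**Figure D3:**
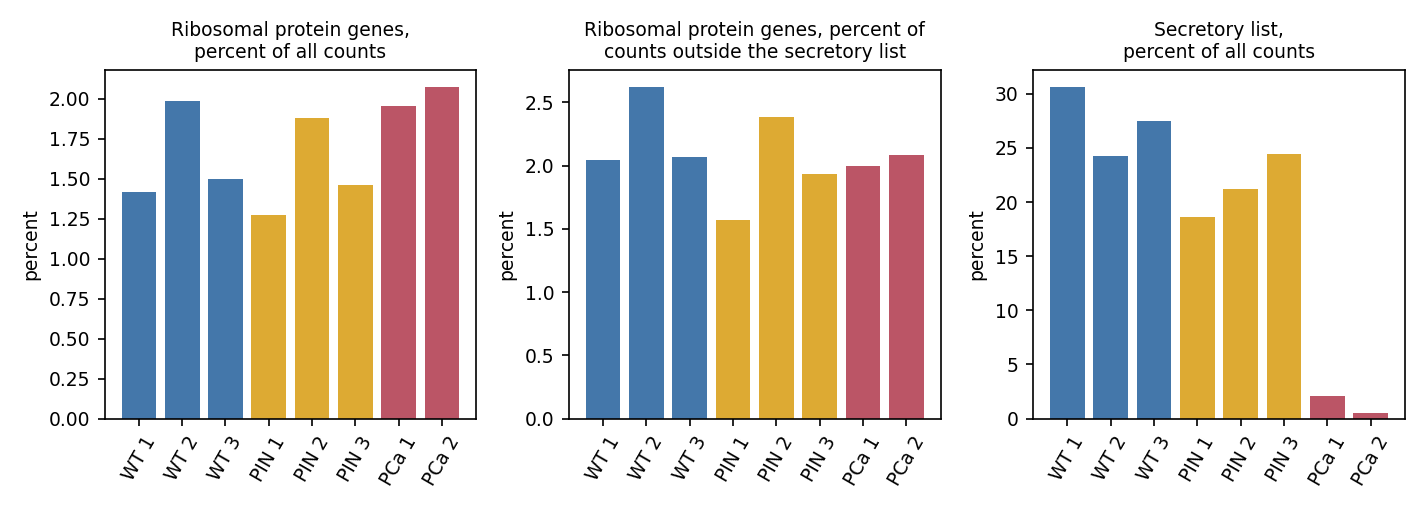
Percent of counts in each of the 8 samples, as bars from 0, for the ribosomal protein genes over all counts (left), the same genes over the counts outside the secretory list (middle) and the secretory list (right). The secretory list falls to 2.09% and 0.546% in PCa, and the ribosomal protein genes stay between 1.27% and 2.07% of all counts.

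The small and the large subunit kept their ratio. The summed TPM of small over large subunit genes was 0.805, 0.929 and 0.911 in WT, 0.901, 0.921 and 0.883 in PIN and 0.929 and 0.903 in PCa, and all PIN and PCa samples lay in or at the edge of the WT range. In PCa vs WT the median log2 fold change was −0.24 over 32 small and −0.25 over 46 large subunit genes.

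The comparison of PIN with WT asked what changes at the precursor stage. By edgeR's quasi-likelihood test, called at a Benjamini-Hochberg adjusted p under 0.05 with or without an absolute log2 fold change above 1, 0 of the 78 members and 0% of the 14034 tested genes were called. At an unadjusted p under 0.05, 6 members were lower and 0 higher, and 492 genes differed (3.51%), 223 of them lower and 269 higher. DESeq2 called 0 members and 43 genes (0.306%), and limma-trend called 0 of either. The median member had a log2 fold change of −0.30, against −0.02 over all tested genes, with 8 members above and 70 below 0. This rested on WT 2: without it the median was 0.02 with 41 members above 0, and without PIN 1 it was −0.18. With library totals in place of TMM it was −0.07, where the median of all genes was 0.18.

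The members farthest below 0 in PIN vs WT were *Rpl41*, which encodes the shortest ribosomal protein, and *Rpl35a* and *Rpl17* of the large subunit. *Rpl41* (mm9 chr10:127985170-127986361) had 88.8, 262 and 135 CPM in WT and 62.9, 88.2 and 92.5 CPM in PIN, a log2 fold change of −0.997 (95% interval −1.90 to −0.10, adjusted p = 1). *Rpl35a* had 63.6, 218 and 113 CPM in WT and 43.3, 116 and 60.4 in PIN (−0.85 ± 0.50 SE), and *Rpl17* had 25.6, 97.9 and 46.0 and then 23.8, 40.2 and 33.5 (−0.80 ± 0.46 SE). In all 3 genes the WT value was highest in WT 2, and the groups overlapped. Groups did not overlap for 4 members, all lower in PIN (*Rpl36*, *Rpl8*, *Rps12* and *Rps15*), against 6.38% of all tested genes lower, 6.48% higher and 12.9% in either direction. *Rps12* had 149, 286 and 156 CPM in WT and 88.9, 135 and 116 in PIN (log2 fold change −0.80, adjusted p = 1). Near the upper end, below *Rpl29*, stood *Rpl7a* of the large subunit at 0.26.

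The comparison of PCa with WT covers the whole course of the disease. By edgeR, 0 of the 78 members were called, while 8.54% of tested genes passed both limits (4.35% higher, 4.18% lower) and 8.99% passed the adjusted p alone (4.52% higher, 4.46% lower). By the adjusted p alone, limma-trend also called 0 members, against 10.1% of all tested genes, and DESeq2 called 1, *Rpl36*, at an adjusted p of 0.0241, against 21.7%. At an unadjusted p under 0.05, 3 members, all lower, stood against 3865 genes (27.5%), 1918 of them lower. The median log2 fold change was −0.25 against 0.01 over all tested genes, with 18 members above and 60 below 0. Without WT 2 it was 0.06 with 44 members above 0, without PCa 1 it was −0.12, and with library totals only it was 0.31, where the median of all genes was 0.55. Relative to the median of all genes, the member median was −0.26 with TMM and −0.24 with totals. With TMM, this difference was −0.005 without WT 2 and −0.04 without PCa 1. Without WT 1, WT 3 or PCa 2 it was −0.39, −0.34 and −0.31.

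*Rpl36* (mm9 chr17:56752818-56753666, plus strand), a protein of the large subunit, had 95.4, 115 and 71.8 CPM in WT, 43.3, 65.7 and 66.5 in PIN and 52.8 and 45.0 in PCa. All 5 PIN and PCa values lay below every WT value. The log2 fold change was −0.68 in PIN vs WT (interval −1.27 to −0.10) and −0.94 in PCa vs WT (−1.61 to −0.28), the lowest of the members, with an adjusted p of 0.0823 that missed the limit. In its coding sequence, 98.1% of 50-base stretches were found elsewhere in mm9. *Rps29* (mm9 chr12:70258709-70260173, minus strand), a zinc-binding protein of the small subunit, had 115, 223 and 144 CPM in WT, 91.9, 132 and 108 in PIN and 84.7 and 91.9 in PCa. Its PCa values lay below every WT value, with a log2 fold change of −0.86 (interval −1.59 to −0.14, adjusted p = 0.125). *Rpl41* came next at −0.77.

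Groups did not overlap in PCa vs WT for 3 members that were higher and 11 that were lower, in a comparison in which 17.7% of tested genes were higher and 19.6% lower without overlap, 37.3% in all. The higher members included *Rpl39*, which lies by the exit tunnel, and *Rpl27*. *Rpl39* had 82.6, 114 and 80.1 CPM in WT and 114 and 126 in PCa (log2 fold change 0.38 ± 0.24 SE, adjusted p = 0.345), and *Rpl27* had 41.2, 45.6 and 34.2 against 52.5 and 48.2 (0.32 ± 0.22 SE, adjusted p = 0.384). *Rps15a* also reached 0.32 but overlapped, with 144, 280 and 161 CPM in WT and 222 and 264 in PCa. With library totals only, 5 members passed an adjusted p of 0.05, all higher in PCa, among them *Rpl27*, *Rpl39*, *Rpl7a* and *Rpl8*, in a setting that called 21.4% of all tested genes.

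PCa vs PIN compares the lesions, with library numbers from 1 series, but age and lesion stage cannot be told apart in it. By edgeR, 0 of the 78 members were called, against 5.72% of tested genes with the fold limit (2.55% higher, 3.17% lower) and 5.86% without it (2.61% higher, 3.26% lower). By the adjusted p alone, limma-trend called 0 members, against 7.42% of all tested genes, and DESeq2 called 1, *Rpl8*, against 16.6%. By edgeR, 1 member, which was higher, had an unadjusted p under 0.05 against 3205 genes (22.8%), 1632 of them higher. The median log2 fold change was 0.04 against 0.07 over all tested genes, and 47 members lay above and 31 below 0. Leaving out 1 sample moved it to −0.08 (without PIN 1), 0.16 (without PIN 2), 0.13 (without PCa 1) or −0.02 (without PCa 2). With library totals only it was 0.37, where the median of all genes was 0.41.

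*Rpl8* (mm9 chr15:76734501-76736748, plus strand), which encodes a protein of the peptidyl transferase centre, had the highest fold change in PCa vs PIN. It had 480, 615 and 421 CPM in WT, 326, 417 and 368 in PIN and 514 and 716 in PCa. Both PCa values lay above every PIN value, and every PIN value lay below every WT value. The log2 fold change was 0.73 (interval 0.09 to 1.38) with an adjusted p of 0.172, which DESeq2 gave as 0.0495, and the change from WT to PCa was 0.28 (interval −0.37 to 0.94). Only 8.83% of its coding stretches occurred elsewhere in mm9. *Rps15a* (0.65), *Rps2* (0.61), *Rps26* and *Rpl18* were likewise higher in both PCa samples than in any PIN sample, and *Rps27* and *Rps29* were lower, in a comparison in which 21.1% of tested genes were higher and 23.2% lower without overlap, 44.3% in all. *Rps2*, a protein near the mRNA entry, had 42.4, 48.9 and 47.8 CPM in PIN and 78.05 and 63.6 in PCa (adjusted p = 0.342). *Rpl4*, the most abundant member, had 1235, 1654 and 1480 CPM in PIN and 1017 and 1263 in PCa, a log2 fold change of −0.35 with overlapping groups. Between the PCa samples, *Rps3a* had 169 CPM in PCa 1 and 299 in PCa 2, *Rps12* 90.6 and 149, and *Rps18* 245 and 190.

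**Figure D4:**
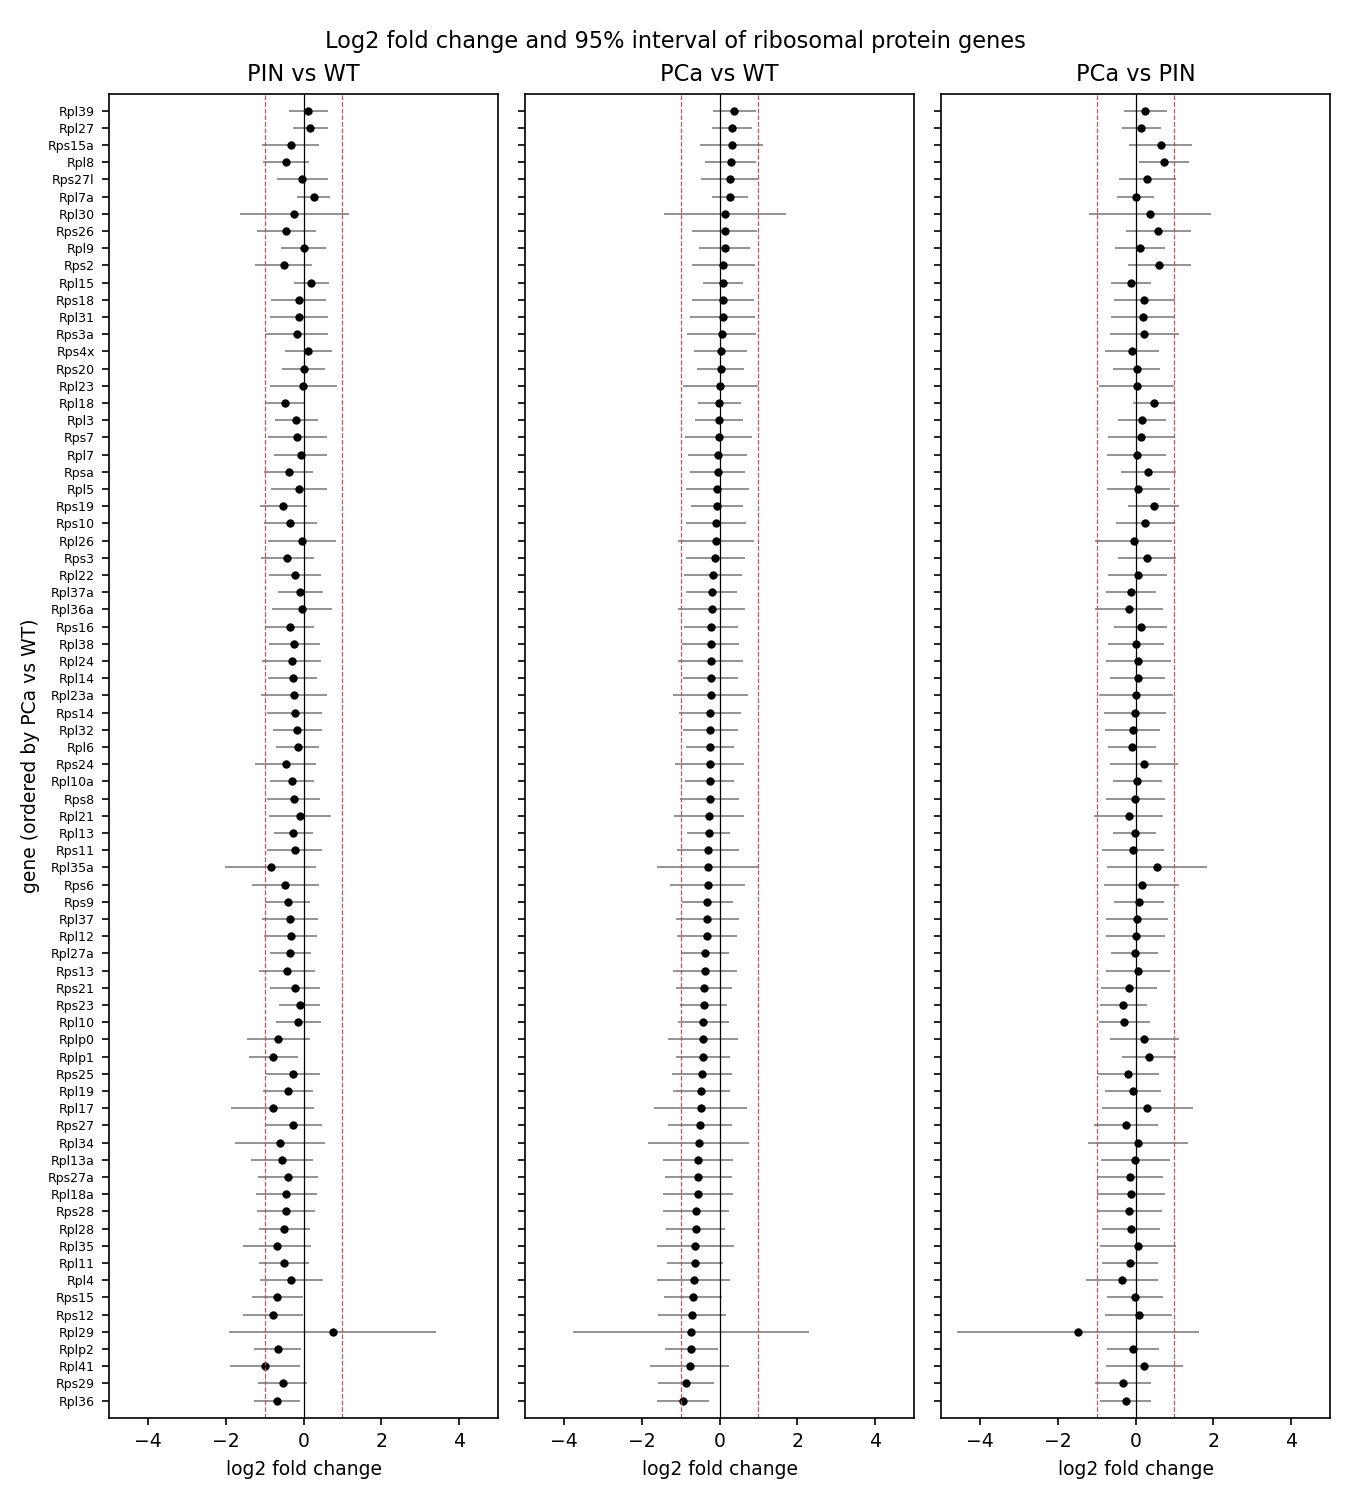
Log2 fold change (point) and 95% interval (line) of 76 of the 78 tested ribosomal protein genes in PIN vs WT, PCa vs WT and PCa vs PIN, ordered by PCa vs WT, with dashed lines at −1 and 1. Most points in the comparisons with WT lie below 0 (70 and 60 of all 78), and *Rpl29* has the widest intervals.

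The data set bounds on changes that the tests did not call. The 95% interval lay within 2-fold in either direction for 39 members in PIN vs WT, 36 in PCa vs WT and 47 in PCa vs PIN, against 43.8%, 24.7% and 27.8% of all tested genes. For the remaining members the interval reached a change of 2-fold or more, and the median standard error was between 0.29 and 0.33 on the log2 scale.

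Members with known special roles were looked at by name. *Rplp0*, *Rplp1* and *Rplp2* form the stalk that recruits elongation factors. *Rplp1* had 421, 356 and 230 CPM in WT, 186, 171 and 231 in PIN and 229 and 270 in PCa, with log2 fold changes of −0.78 ± 0.27 SE in PIN and −0.43 ± 0.30 SE in PCa. *Rplp2* had 305, 240 and 177 CPM in WT, 121, 180 and 153 in PIN and 137 and 153 in PCa, where the PCa values lay below all WT values (−0.73 ± 0.29 SE, adjusted p = 0.155). *Rplp0* had 517, 599 and 514 CPM in WT, 228, 529 and 283 in PIN and 336 and 472 in PCa. In PCa vs PIN the stalk genes lay at 0.22, 0.35 and −0.06, and none of the 3 passed the test in any comparison.

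*Rpl5* and *Rpl11*, which with the 5S rRNA hold back Mdm2 and so stabilise p53, had PCa vs WT log2 fold changes of −0.05 ± 0.35 SE and −0.63 ± 0.31 SE. *Rpl11* had 160, 268 and 172 CPM in WT, 105, 171 and 149 in PIN and 140 and 118 in PCa, below WT in both PCa samples (adjusted p = 0.239). *Rps6*, the substrate of the S6 kinases, had 96.2, 268 and 147 CPM in WT, 100.1, 155 and 114 in PIN and 142 and 133 in PCa, and *Rpsa*, also known as a laminin receptor, had 84.9, 146 and 88.6, then 72.6, 91.6 and 80.8, and then 81.4 and 124. Both overlapped in all comparisons.

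The tissue-restricted paralogs were at or near 0. *Rpl10l* (mm9 chr12:67384368-67385388) and *Rpl39l* (chr16:10170319-10175004), known from testis, had 0 counts in 8 samples and 1 count in all 8 together, and *Rpl3l* (chr17:24864774-24873094), known from striated muscle, had 0 to 3 counts per sample, so their expression was not detectable at this depth. Their parents *Rpl10*, *Rpl39* and *Rpl3* were expressed throughout, *Rpl3* at 324, 460 and 329 CPM in WT, 286, 367 and 324 in PIN and 320 and 412 in PCa. *Rps27l*, a target of p53, had 59.7, 106 and 77.9 CPM in WT, 61.1, 87.2 and 90.3 in PIN and 78.3 and 117 in PCa (PCa vs WT 0.27 ± 0.32 SE), and its parent *Rps27* had 187, 417 and 228, then 203, 268 and 220, and then 193 and 198 (−0.50 ± 0.36 SE).

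*Rpl22l1*, a paralog of *Rpl22* that the symbol rule does not take in, was called. It had 11.9, 25.2 and 14.2 CPM in WT, 33.8, 34.0 and 29.4 in PIN and 46.2 and 44.5 in PCa, and the 3 groups did not overlap. The log2 fold change was 1.40 ± 0.32 SE in PCa vs WT (adjusted p = 0.0380), 0.92 ± 0.29 SE in PIN vs WT (adjusted p = 1) and 0.48 ± 0.32 SE in PCa vs PIN (adjusted p = 0.416). The call was lost without WT 1 (adjusted p = 0.0754) or WT 3 (0.118) and with only the 2 groups compared (0.160). It was also lost with the replicate number as a block (0.0964) and with no filter on low counts (0.0538). The log2 fold change stayed at 1.21 or above, and was 1.45 without PCa 2. *Rpl22* had 204, 412 and 275 CPM in WT, 213, 299 and 254 in PIN and 266 and 264 in PCa, a log2 fold change of −0.17 ± 0.32 SE in PCa vs WT. Of the 50-base coding stretches, 81.9% of those of *Rpl22l1* and 30.8% of those of *Rpl22* were found elsewhere in mm9. The difference in fold change between the 2 genes was not tested. *Rpl7l1* and *Rpl36al* lay at −0.13 and −0.31 in PCa vs WT and did not pass the test.

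**Figure D5:**
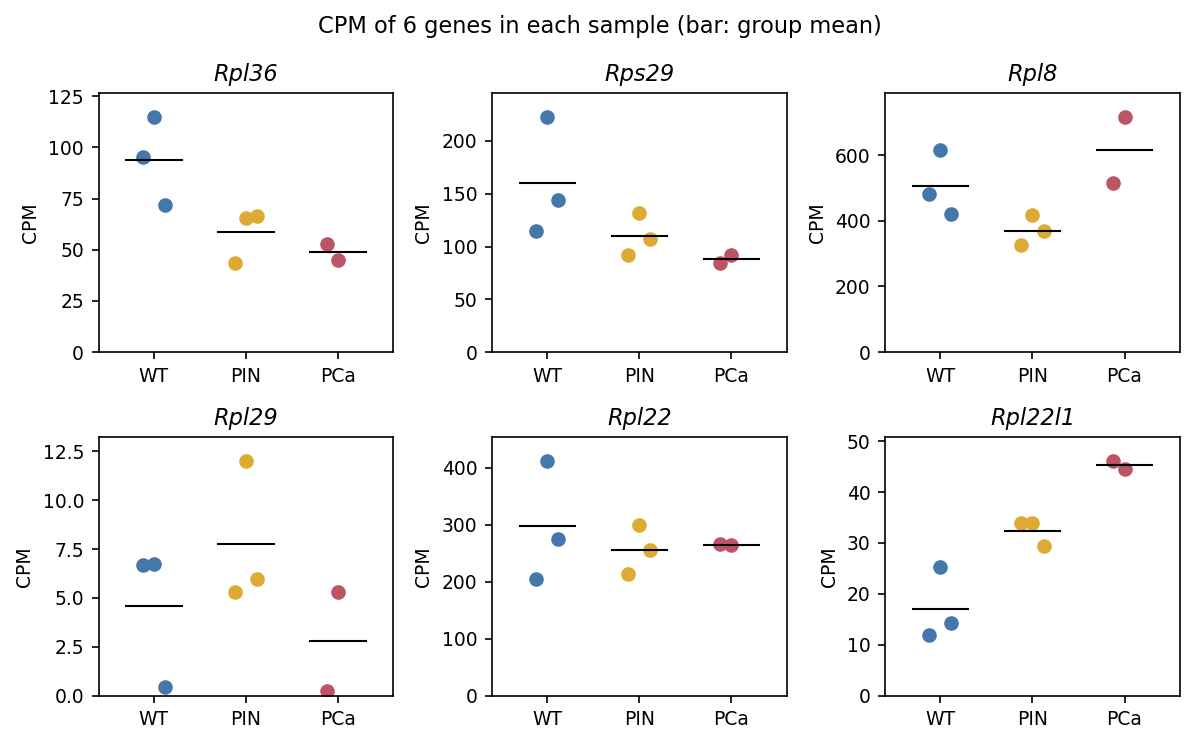
CPM with TMM-scaled library sizes of *Rpl36*, *Rps29*, *Rpl8*, *Rpl29*, *Rpl22* and *Rpl22l1* in each WT, PIN and PCa sample, with a line at the group mean and each axis from 0. *Rpl36* lies below WT in all PIN and PCa samples, *Rpl29* is near 0 in 1 WT and 1 PCa sample, and *Rpl22l1* lies between 11.9 and 25.2 CPM in WT and at 46.2 and 44.5 CPM in PCa.

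Other genes of ribosome production were read against the same shares of all tested genes, 0% in PIN vs WT, 8.99% in PCa vs WT and 5.86% in PCa vs PIN by the adjusted p and 3.51%, 27.5% and 22.8% by the unadjusted p. Of 75 mitochondrial ribosomal protein genes tested, 0 were called by edgeR in any comparison (3, 12 and 6 at an unadjusted p under 0.05 in PIN vs WT, PCa vs WT and PCa vs PIN), with medians of −0.12, −0.08 and 0.07. Of 20 other mRNAs known to start with a TOP motif, 1 passed the adjusted p in PCa vs WT: *Nap1l1*, a histone chaperone, rose from 41.2, 53.5 and 45.1 CPM in WT to 99.7 and 83.8 CPM (log2 fold change 0.98, adjusted p = 0.0241). The elongation factors *Eef1a1* and *Eef2* lay at −0.43 ± 0.40 SE and −0.67 ± 0.39 SE there. Of 31 initiation factors 0 were called in any comparison, with 0, 1 and 0 at an unadjusted p under 0.05, and the median in PCa vs WT was −0.22. Their summed CPM was 5978, 10714 and 6897 in WT 1, WT 2 and WT 3, 6620 to 7266 in PIN and 5597 and 7207 in PCa. WT 2 thus stood apart for this list too.

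Of 48 ribosome assembly factors, 1 was called. *Fbl*, the methyltransferase fibrillarin of the nucleolus, had 7.50, 11.04 and 11.4 CPM in WT, 7.90, 11.8 and 8.16 in PIN and 22.2 and 25.02 in PCa, and rose by 1.24 ± 0.30 SE vs WT (adjusted p = 0.0458) and by 1.35 ± 0.30 SE vs PIN (adjusted p = 0.0460) on the log2 scale. The median assembly factor lay at −0.28 in PIN vs WT, 0.12 in PCa vs WT and 0.34 in PCa vs PIN, against −0.02, 0.01 and 0.07 over all genes. In PIN vs WT 44 of 48 lay below 0, against 7295 of the 14034 tested genes. In PCa vs PIN 41 of 48 lay above 0, against 7615 of the 14034 tested genes. The summed CPM of the assembly factors was 1973, 4388 and 2783 in WT 1, WT 2 and WT 3. It was 2399 to 2820 in PIN, 2721 in PCa 1 and 3783 in PCa 2. WT 2 thus stood above every PIN and PCa sample and WT 1 below all of them. *Npm1* had 0.53 ± 0.40 SE and *Ncl* 0.09 ± 0.41 SE in PCa vs PIN. Of 19 genes of RNA polymerase I and its factors 0 were called (1, 0 and 1 at an unadjusted p under 0.05), and *Polr1a*, its largest subunit, had 32.3 CPM in PCa 1 and 78.8 in PCa 2.

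Among regulators, *Myc* had 57.8, 67.0 and 59.0 CPM in WT, 54.2, 59.5 and 41.9 in PIN and 45.5 and 73.7 in PCa, and *Larp1* and *Mtor* had PCa vs WT log2 fold changes of 0.06 ± 0.22 SE and −0.05 ± 0.23 SE. Of 18 mTOR pathway genes tested, 2 passed the adjusted p in PCa vs WT without the fold limit, both lower, against 4.46% of all tested genes. They were *Tsc2*, an inhibitor of the pathway (−0.81, adjusted p = 0.0468), and *Eef2k*, the kinase that inhibits elongation factor 2 (−0.88, adjusted p = 0.0342). The median of the list was −0.48, against 0.01 over all tested genes, with 15 of 18 below 0. At an unadjusted p under 0.05, 6 were lower and 0 higher, against 1918 and 1947 of the 14034 tested genes. Of 15 p53 targets, 3 rose in PCa vs WT, where 4.52% of all tested genes were called higher: *Plk2* (3.27, adjusted p = 0.0168), *Gtse1* (3.26, adjusted p = 0.0297) and *Sesn1* (1.35, adjusted p = 0.0217), and *Sesn1* also rose in PCa vs PIN (1.07, adjusted p = 0.0490). These adjusted p are from edgeR over all tested genes.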

How the data were processed

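Bulk RNA-seq of 3 WT, 3 PIN and 2 PCa mouse prostate samples was used, each labelled as a separate sample. The authors prepared ribosomal RNA-depleted libraries, trimmed paired-end reads with cutadapt 1.9.1, aligned them to mm9 with HISAT2 2.1.0 and counted them per gene with HTSeq 0.6.1. The deposited values are raw counts. The deposited table also gives the summed exon length of each gene, an other kind of value, from which TPM was computed. HTSeq options for strand and multi-mapped reads are not given in the sources used here.

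Genes above 1 CPM in at least 2 samples were fitted with edgeR 4.0.16 in R 4.3.3 (TMM scaling, quasi-likelihood F-test, 3 groups in 1 model, 5 residual degrees of freedom, Benjamini-Hochberg adjustment over all 14034 tested genes). CPM are per 1000000 of the TMM-scaled library size. The standard error is the log2 fold change divided by the root of F. P-values measure the spread between these samples. DESeq2 1.42.0 and limma 3.58.1 were alternatives. The steps were tested on simulated data. Members, lists and the rule for named genes (called members, the 3 highest and lowest per comparison, level and PCa difference, paralogs and known roles) were chosen with earlier results of these data known.

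Promoters come from RefSeq (GRCm38.p6) and coding sequences from GENCODE on mm9. The search for copies, the level per coding transcript and the TMM-scaled share were added after seeing the data. Results of 2 members are not reported here by name and these members are not drawn in the plots that label each gene.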

Additional observations from a re-analysis of the deposited data

How the results depend on the processing

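The median log2 fold change of the ribosomal protein genes moved by less than 0.34 from the reported value, which is the spread between samples of a group, under all alternatives except library totals without TMM scaling in PCa vs WT, where it was 0.31. This limit exceeds the reported medians (−0.30, −0.25 and 0.04) in size. A change of sign can therefore stay within it, as it did without WT 2 in both comparisons with WT. With 1 library left out it ran from −0.44 to 0.02 in PIN vs WT, from −0.37 to 0.06 in PCa vs WT and from −0.08 to 0.16 in PCa vs PIN. Over the 11 members with under 50% of their stretches elsewhere, it was −0.34, −0.30 and 0.04. No member was called under any alternative but library totals (5 without the fold limit in PCa vs WT, where 21.4% of all genes were called, and 1 with and without it in PCa vs PIN, where 1263 genes passed without it) and DESeq2 (1 in each without the fold limit). The log2 ratio of shares of counts was 0.30 in PCa vs WT, −0.14 outside the secretory list and −0.26 for TMM-scaled CPM, and 0.39, 0.058 and 0.055 in PCa vs PIN. Of the 10 highest members by TPM, 4 remained by CPM. Counts over all genes moved more: 3041 passed the adjusted p in PCa vs WT with DESeq2 and 130 with only the 2 groups fitted, against 1261. The replicate numbers do not pair the samples, since no label ties equal numbers together and their deviations from the group means correlated from −0.05 to 0.27. With the replicate block 0 members and 413 genes were called in PCa vs WT, *Rpl22l1* had an adjusted p of 0.0964 there by edgeR and was not called, and the member medians were −0.27, −0.23 and 0.00. The limits are few samples, 2 of them for PCa, and sequence shared with copies.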
